A study of Mus musculus with 26 samples.

Results

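Expression of 8 genes of sterol efflux and its control was followed in mouse colon through the azoxymethane–dextran sodium sulfate (AOM–DSS) model of inflammation-driven colorectal cancer, in mice fed a standard diet or a diet with GW3965, a synthetic agonist of the liver X receptors (LXRs). The genes were fixed by name as the sterol transporters *Abca1*, *Abcg1*, *Abcg5* and *Abcg8*, the LXR genes *Nr1h2* (LXRβ) and *Nr1h3* (LXRα), their partner *Rxra* (RXRα) and the ubiquitin ligase gene *Mylip*. They are 8 of the 35975 genes to which the deposited transcripts were summed. All mice were wild-type C57BL/6J males from Taconic, about 10 weeks old at the start. At days 22, 43 and 70 after 1 injection of AOM (10 mg per kg), and during up to 3 cycles of DSS in the drinking water, 3 libraries came from each diet. The day 0 groups held 4 libraries per diet from mice given neither AOM nor DSS, 2 after 22 days and 2 after 43 days of the diet. Diet and cage cannot be told apart at days 0, 22 and 43, because the day 0 libraries of a diet shared a cage, as did its day 22 and day 43 libraries, whereas each day 70 library had a cage of its own. No cage held libraries of both day 0 and a later day, so AOM–DSS and cage cannot be told apart in comparisons with day 0. The labels do not say that each library is a separate mouse, so P values measure the spread between these libraries.

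LXRs are nuclear receptors that bind oxidized cholesterol derivatives and, paired with a retinoid X receptor such as RXRα, switch on genes that remove sterol from the cell. ABCA1 passes cholesterol to lipid-poor apolipoprotein A-I and ABCG1 passes it to lipoprotein particles, whereas ABCG5 and ABCG8 form a heterodimer that pumps plant sterols and cholesterol out across the apical membrane of enterocytes and hepatocytes. MYLIP, also called IDOL, is a ubiquitin ligase that limits sterol uptake.

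The textbook LXR element is a direct repeat of a hexamer with 4 bases between the copies, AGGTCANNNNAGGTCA. It was searched on both strands in the 250 bases before each RefSeq start (GRCm38.p6), which 7 of the 8 genes had. With at most 2 mismatches over the 12 fixed bases, none of the 7 genes held a match. Of all 27025 genes with a window 2.96% held one, as did 2.57% of their 32851 windows. With 3 mismatches, a limit set after the sequences had been seen, *Abca1* and 1 of the *Rxra* windows held a match each, beside 20.9% of all genes and 18.5% of all windows. That *Rxra* window stands before a transcript given 0% of the *Rxra* counts in every library. The window before the leading *Rxra* transcript, with 98.5% to 100% of the counts, held no match. Printed here are 3 stretches, each 5′ to 3′ on the strand of the gene it precedes: the windows of *Abca1* (chr4:53159896-53160145, minus strand) and *Mylip* (chr13:45389492-45389741, plus strand), which stand before genes of larger and smaller diet effect, and all 109 bases that separate the divergent starts of *Abcg5* and *Abcg8* (chr17:84683012-84683120, plus strand), which were expressed side by side. Capitals mark the match with 3 mismatches, which lies 67 to 52 bases before the *Abca1* start with the motif on the opposite strand.
Abca1: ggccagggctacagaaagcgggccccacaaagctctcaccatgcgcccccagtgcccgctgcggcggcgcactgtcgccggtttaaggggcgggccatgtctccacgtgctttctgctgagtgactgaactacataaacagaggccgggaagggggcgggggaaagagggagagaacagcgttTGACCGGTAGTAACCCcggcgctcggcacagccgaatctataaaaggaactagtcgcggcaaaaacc
Abcg5–Abcg8: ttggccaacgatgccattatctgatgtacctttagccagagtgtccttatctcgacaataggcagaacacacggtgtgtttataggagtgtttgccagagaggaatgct
Mylip: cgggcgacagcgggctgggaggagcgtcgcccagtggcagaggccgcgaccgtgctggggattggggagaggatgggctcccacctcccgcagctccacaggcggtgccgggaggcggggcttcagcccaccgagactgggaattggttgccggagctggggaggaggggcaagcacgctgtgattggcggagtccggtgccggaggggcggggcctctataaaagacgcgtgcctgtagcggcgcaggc
The stretch between *Abcg5* and *Abcg8* was 45.9% G and C, against 61.6% in the *Abca1* window and 71.2% in the *Mylip* window. A match is a likeness of letters, and its absence says only that these letters are not in the window.

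Total counts per library ranged from 18195345 to 41522204, and all 8 genes passed the filter on low counts that kept 17063 genes. The lowest count of any of the 8 genes was 28, for *Abcg8* in a standard diet library of day 43. Standard diet day 43 replicate 1 had the largest total and the lowest RNA integrity number (2.6, on a scale on which lower values mean more degraded RNA). One day 0 library (43 days of diet, replicate 2) is named as GW3965 in its title, whereas its diet entry reads standard, and it was placed by its title. The 5 colon epithelium markers (*Epcam*, *Cdh1*, *Krt8*, *Vil1* and *Cdx2*) were detected in every group and summed to between 1990 and 12103 CPM (counts divided by library size and scaled to a common total, with library sizes set by edgeR's TMM factors). The lowest sum belonged to GW3965 day 70 replicate 1, in which 3 skeletal muscle markers summed to 11913 CPM, against at most 408 CPM in every other library, and 3 squamous epithelium markers to 10318 CPM, against 3.61 and 9411 CPM in replicates 2 and 3 of that group and 2170 to 2836 CPM on the standard diet at day 70. In whole tissue, fewer cells of a type and less RNA per cell cannot be told apart.

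Levels of different genes were compared in TPM, which account for transcript length. On the standard diet the median over 13 libraries was highest for *Nr1h2*, at 56.8 TPM, followed by *Nr1h3* at 16.95 TPM, *Rxra* at 14.4 TPM and *Mylip* at 13.9 TPM. The transporters were lower, with *Abcg5* at 7.37 TPM, *Abcg1* at 4.12 TPM, *Abca1* at 3.59 TPM and *Abcg8* at 1.54 TPM. Pooled over days, the medians over the 13 GW3965 libraries were 59.7 TPM for *Nr1h2*, 31.8 TPM for *Abcg5* and 31.4 TPM for *Mylip*. *Nr1h3* followed at 24.99 TPM, *Rxra* at 22.04 TPM and *Abcg1* at 21.1 TPM, with *Abca1* and *Abcg8* below them. The order of *Nr1h2* and *Abcg5* differed between days. At day 0 on GW3965 *Abcg5* had 80.5 ± 5.48 TPM (SD, n = 4; 73.5 to 85.7) and *Nr1h2* 62.6 ± 2.52 TPM (n = 4; 60.1 to 65.3), so *Abcg5* lay above *Nr1h2* in all 4 libraries. At days 22, 43 and 70 the means of *Abcg5* were 22.3, 22.7 and 43.8 TPM and those of *Nr1h2* 51.9, 38.7 and 61.9 TPM. The means of *Nr1h3* at days 22 and 43, at 23.3 and 22.9 TPM, and of *Mylip* at day 70, at 43.3 TPM, differed from those of *Abcg5* by less than the SD of *Abcg5*.

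The 4 transporter genes were higher on the GW3965 diet in every library of every day, whereas the receptor genes mostly overlapped between the diets. At an adjusted P below 0.05 (edgeR's quasi-likelihood test, adjusted over all 17063 genes), 4, 3, 4 and 5 of the 8 genes were higher on GW3965 at days 0, 22, 43 and 70, and none was lower (0 at an unadjusted P below 0.05, and 0 by DESeq2). Over all genes tested, 0.0293%, 0.0879%, 0.0293% and 1.75% were called higher at these days. Every GW3965 library lay above every standard library for 5 of the 8 genes at days 0, 22 and 43 and for 6 at day 70. Over all genes the share with such a gap was 1.3%, 12.1%, 6.73% and 10.5% at the 4 days in order. The fit holds the ribosomal percentage (the part of the counts on ribosomal protein genes) as 1 term shared by all groups. The study's methods instead let a percentage of ribosomal RNA interact with diet and day. How that was measured is not given, so it may be another quantity. With such interactions for the percentage used here, which leave 10 residual degrees of freedom, edgeR called 0 of the 8 genes for diet at any of the 4 days. The count over all genes in that fit is not given here, so this count cannot tell a lost effect from lost power. The log2 fold changes of the 4 transporter genes then lay between 1.36 and 2.32 at day 22 (SE 0.315 to 0.633, adjusted P between 0.16 and 0.43, edgeR) and between 0.18 and 5.46 at the other days (SE 1.00 to 2.35, adjusted P between 0.99 and 1).

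**Figure D1:**
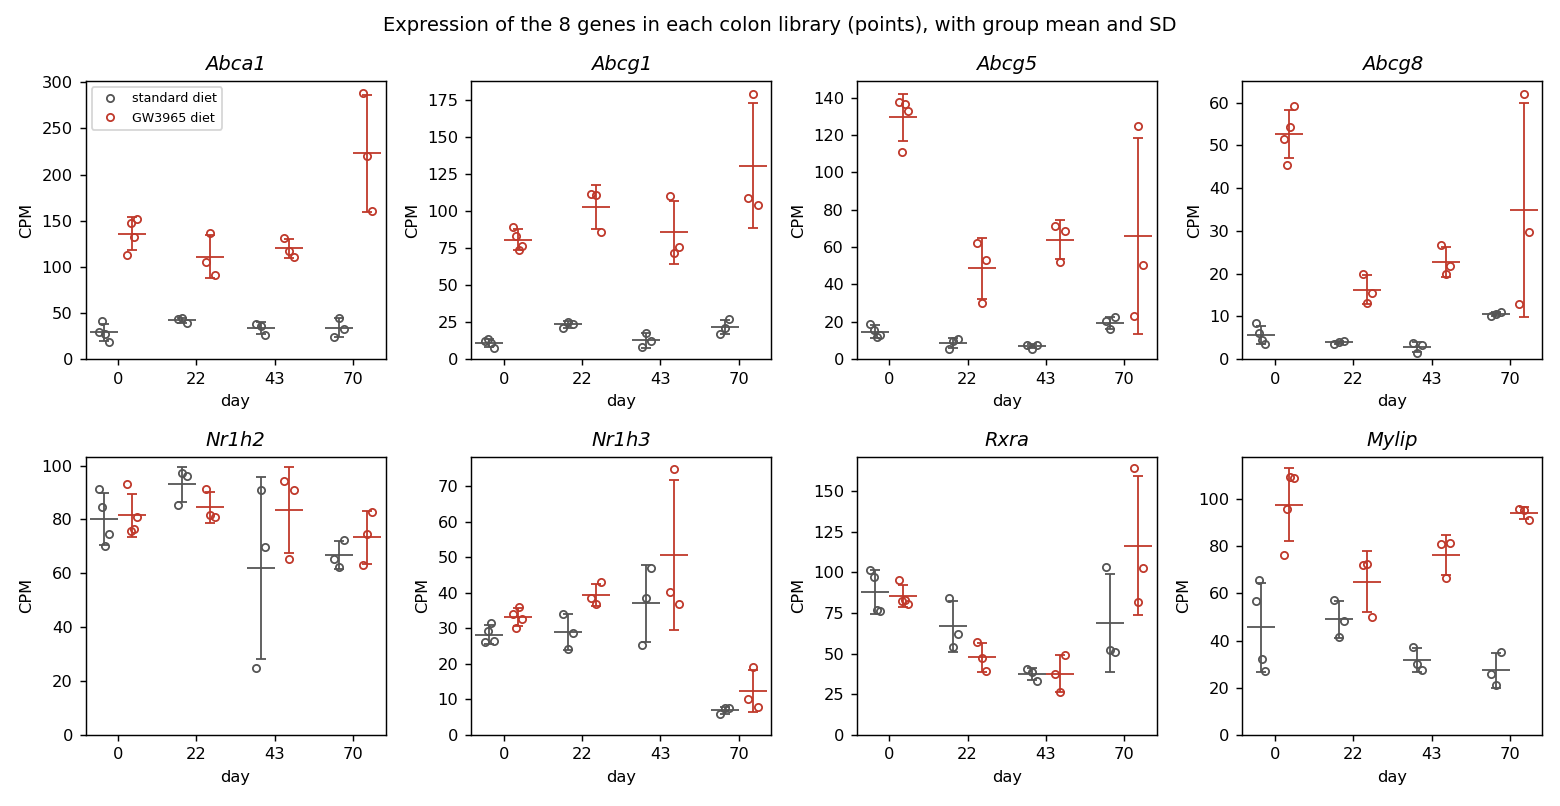
Each point is 1 library, placed by day (horizontal axis) and CPM (vertical axis, linear from 0), with standard diet in grey and GW3965 in red; horizontal bars are group means and error bars the SD. The red points of *Abca1*, *Abcg1*, *Abcg5* and *Abcg8* lie above the grey points at every day, and both groups of *Nr1h3* are lowest at day 70.

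*Abca1* (ENSMUSG00000015243.4, chromosome 4, 53030787 to 53159895, minus strand) had 29.7, 41.0, 27.4 and 18.5 CPM in the 4 standard diet libraries of day 0 and 113, 148, 132 and 151 CPM in the 4 GW3965 libraries. At day 22 the standard diet gave 43.4, 44.0 and 39.0 CPM and GW3965 gave 105, 136 and 91.2 CPM. At day 43 the values were 38.3, 36.1 and 26.4 CPM against 132, 118 and 111 CPM. The standard diet thus held *Abca1* between 18.5 and 45.1 CPM at all days and GW3965 never below 91.2 CPM. At day 70 the standard diet gave 24.4, 45.1 and 33.1 CPM, and GW3965 gave the 3 highest values of the series, 288, 220.2 and 161 CPM. The log2 fold change was 2.23 ± 0.235 (SE) at day 0 (adjusted P = 4.1e-05, edgeR), 1.41 ± 0.266 at day 22 (adjusted P = 0.033), 1.79 ± 0.286 at day 43 (adjusted P = 0.014) and 2.67 ± 0.284 at day 70 (adjusted P = 0.00014). The calls of days 0 and 70 were kept when any 1 of the 26 libraries was left out. The day 22 call was lost without any 1 of the 6 libraries of that day, GW3965 day 0 (22 days) replicate 2, GW3965 day 0 (43 days) replicate 1 or GW3965 day 43 replicate 1 (adjusted P between 0.050 and 0.22, log2 fold change between 1.23 and 1.52). The day 43 call was lost without GW3965 day 43 replicate 1 (adjusted P = 0.064) or replicate 2 (adjusted P = 0.66), with log2 fold changes of 1.73 and 1.72.

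In order of its group means, *Abca1* was highest on GW3965 at day 70 (223 ± 63.5 CPM, SD, n = 3), followed by GW3965 at day 0 (136 ± 17.7, n = 4), day 43 (120.1 ± 10.5, n = 3) and day 22 (111 ± 23.3, n = 3). The day 70 libraries did not overlap the group after them, but the next 3 groups overlapped each other. The 4 standard diet groups followed without overlap with GW3965, at means of 29.1 to 42.1 CPM, each overlapping its neighbour. One 10262-base transcript, the coding one, took between 97.7% and 100% of the estimated counts of *Abca1*.

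*Abcg1* (ENSMUSG00000024030.7, chromosome 17, 31057675 to 31117988, plus strand) was called for diet at all 4 days, with log2 fold changes between 2.16 and 2.90. The 4 libraries of day 0 had 12.2, 13.3, 10.6 and 7.38 CPM on the standard diet and 89.3, 83.3, 74.0 and 76.5 CPM on GW3965. At day 22 the diets gave 21.2, 25.3 and 23.9 CPM and 112, 111 and 85.7 CPM. On either diet the day 22 libraries lay mostly above those of day 0. At day 43 the standard libraries had 7.96, 17.8 and 11.95 CPM, and the GW3965 libraries 110.0, 71.4 and 75.7 CPM. At day 70 they had 17.3, 21.1 and 26.8 CPM and 109, 179 and 104 CPM. The lowest GW3965 library of the series, at 71.4 CPM, stood far above the highest standard library, at 26.8 CPM. The log2 fold change was 2.90 ± 0.246 (SE) at day 0 (adjusted P = 1.4e-06, edgeR), 2.16 ± 0.276 at day 22 (adjusted P = 0.00097), 2.65 ± 0.298 at day 43 (adjusted P = 0.00033) and 2.51 ± 0.286 at day 70 (adjusted P = 0.00017). All 4 calls were kept when any 1 of the 26 libraries was left out. The GW3965 groups overlapped their neighbours in the order of means (131, 103, 85.7 and 80.8 CPM at days 70, 22, 43 and 0), as did the standard groups (23.4, 21.7, 12.6 and 10.9 CPM at days 22, 70, 43 and 0).

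*Abcg5* and *Abcg8* encode the 2 subunits of one transporter and start 109 bases apart in opposite directions on chromosome 17 (84658234 to 84683011, minus strand, and 84676302 to 84700333, plus strand). Their annotated spans overlap by 6710 bases because of 1 *Abcg8* transcript, and their exons share 82 bases on opposite strands. Whether strand was used in the quantification is not given in the sources used here, so reads from these shared bases cannot be assigned to one gene. *Abcg5* (ENSMUSG00000040505.13) had 18.9, 15.7, 11.8 and 12.7 CPM at day 0 on the standard diet and 138, 111, 137 and 133 CPM on GW3965. *Abcg8* (ENSMUSG00000024254.15) had 8.43, 6.09, 4.51 and 3.42 CPM and 51.5, 45.5, 54.4 and 59.2 CPM in the same libraries. These were the 2 largest diet effects of the 8 genes at day 0, with log2 fold changes of 3.14 ± 0.374 (SE, adjusted P = 0.00017, edgeR) and 3.22 ± 0.373 (adjusted P = 0.00013), and both calls were kept without any 1 of the 26 libraries.

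At days 22 and 43 both genes of the pair kept the gap between the diets, at lower levels on GW3965 than at day 0. At day 22 *Abcg5* had 5.37, 9.53 and 10.7 CPM on the standard diet and 62.3, 30.2 and 53.1 CPM on GW3965, and *Abcg8* had 3.44, 4.03 and 4.18 CPM and 20.0, 13.2 and 15.5 CPM. At day 43 *Abcg5* had 7.37, 5.62 and 7.45 CPM against 71.2, 52.1 and 68.6 CPM, and *Abcg8* had 3.67, 1.499 and 3.27 CPM against 26.6, 19.8 and 21.8 CPM. The GW3965 libraries of days 22 and 43 lay below every GW3965 library of day 0. At day 22 the log2 fold change was 2.51 ± 0.427 for *Abcg5* (SE, adjusted P = 0.015, edgeR) and 2.05 ± 0.420 for *Abcg8* (adjusted P = 0.057, not called, although DESeq2 called it at an adjusted P of 0.00040). The *Abcg5* call of day 22 was lost without GW3965 day 22 replicate 1 or 3 or any of the 3 standard libraries of that day (adjusted P between 0.063 and 0.12), whereas *Abcg8* was called without GW3965 day 70 replicate 1 or 2, standard diet day 0 (43 days) replicate 2 or standard diet day 43 replicate 1 or 2 (adjusted P between 0.010 and 0.044). At day 43 the log2 fold changes were 3.20 ± 0.473 (adjusted P = 0.0075, edgeR) and 3.05 ± 0.475 (adjusted P = 0.012). Without GW3965 day 43 replicate 2 the adjusted P was 0.088 for *Abcg5* and 0.14 for *Abcg8*.

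At day 70 the pair varied most between libraries. On the standard diet *Abcg5* had 20.2, 16.02 and 22.3 CPM and *Abcg8* had 10.2, 10.5 and 11.1 CPM. On GW3965 the 3 libraries, in order of replicate number, had 22.98, 125 and 50.2 CPM of *Abcg5* and 12.95, 62.0 and 29.7 CPM of *Abcg8*. Replicate 2 reached the level of day 0, and replicate 1 lay just above the standard diet. The log2 fold changes were 1.75 ± 0.420 (SE, adjusted P = 0.041, edgeR) and 1.74 ± 0.417 (adjusted P = 0.040). Without replicate 2 they were 0.93 and 1.05 and not called (adjusted P = 0.098 and 0.088). Both calls were also lost without any standard library of day 70 (adjusted P between 0.081 and 0.20) and, with little movement of the log2 fold change (1.72 to 1.80), at adjusted P between 0.050 and 0.066 without GW3965 day 0 (43 days) replicate 1 or 2, GW3965 day 22 replicate 1 or 3, GW3965 day 43 replicate 2 or 3, standard diet day 22 replicate 2 or standard diet day 43 replicate 3. In the same range, *Abcg5* alone was lost without GW3965 day 43 replicate 1, and *Abcg8* alone without GW3965 day 22 replicate 2 or standard diet day 22 replicate 1 or 3.

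Markers of mature colonocytes (*Slc26a3*, *Car1*, *Aqp8*, *Krt20* and *Ceacam20*) ran in the order of these values on GW3965 at days 22, 43 and 70. They did not at day 0 or on the standard diet. Their summed level in the 3 GW3965 libraries of day 70 was 152, 977 and 485 CPM, the same order as *Abcg5* and *Abcg8*. At day 43 the GW3965 libraries had 765, 641 and 675 CPM of the markers, and at day 22 they had 1472, 906 and 1351 CPM, again in the order of both genes. The GW3965 libraries of day 0 had 1428 to 3489 CPM of the markers and did not follow that order. Between days 22 and 43 the markers fell on GW3965, whereas the mean of *Abcg5* went from 48.5 to 64.0 CPM and that of *Abcg8* from 16.3 to 22.8 CPM. On the standard diet the markers ranged from 1462 to 3396 CPM at day 0, from 860 to 1730 CPM at day 22, from 285 to 471 CPM at day 43 and from 380 to 1190 CPM at day 70, beside *Abcg5* between 5.37 and 22.3 CPM in all 13 libraries. The standard libraries of day 22 had 1730, 860 and 997 CPM of the markers beside 5.37, 9.53 and 10.7 CPM of *Abcg5*. Those of day 70 had 1190, 383 and 380 CPM beside 20.2, 16.02 and 22.3 CPM. All 5 markers were detected in every group. The order was not particular to mature colonocytes. The 5 colon epithelium markers also ran in the order of both genes on GW3965 at days 22, 43 and 70, and not at day 0. They summed to 5236, 4576 and 4652 CPM at day 22, to 4454, 3252 and 4165 CPM at day 43 and to 1990, 6577 and 6421 CPM at day 70. The 4 goblet cell markers (*Muc2*, *Clca1*, *Fcgbp* and *Zg16*) also ran in the order of both genes on GW3965 at day 70 (419, 2297 and 1238 CPM). They ran in the reverse order at day 22 (3092, 6719 and 5576 CPM) and in neither at day 43 (1674, 3751 and 1537 CPM). The part of epithelial, colonocyte or goblet cell content in these values was not tested.

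**Figure D2:**
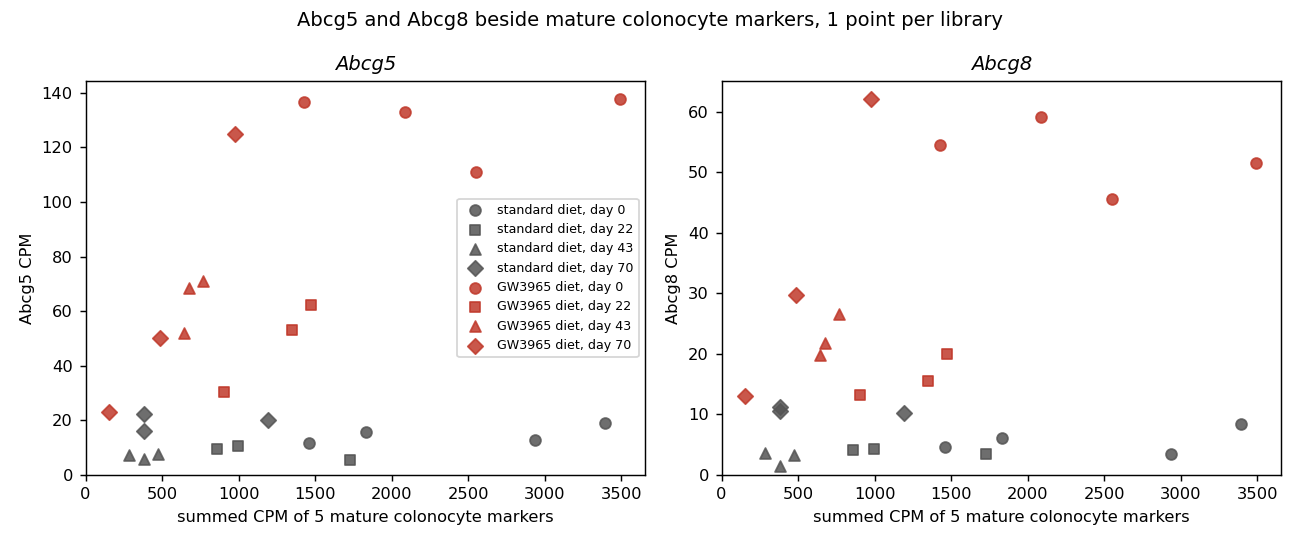
Each point is 1 library, with the summed CPM of 5 mature colonocyte markers on the horizontal axis and the CPM of *Abcg5* (left) or *Abcg8* (right) on the vertical axis, both linear from 0; colour gives the diet and shape the day. The 3 GW3965 libraries of day 70 rise from 152 to 977 CPM of markers and from 22.98 to 125 CPM of *Abcg5*, whereas the grey points stay at or below 22.3 CPM of *Abcg5* across the whole range.

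Within a library the pair kept a similar ratio. In TPM, *Abcg5* exceeded *Abcg8* by 3.86 ± 0.849 times (SD, n = 4) on the standard diet and 3.38 ± 0.333 times (n = 4) on GW3965 at day 0, and the ratio lay between 2.06 and 5.96 in all 26 libraries. The diets differed by factors of 0.887, 1.31, 0.894 and 0.866 at days 0, 22, 43 and 70 (two-sided exact permutation tests, P = 0.4, 0.4, 0.6 and 0.4, adjusted P = 0.53, 0.53, 0.69 and 0.53 over 8 ratio tests). The smallest P these tests allow is 0.029 at day 0 and 0.1 at the other days, so after adjustment over 8 tests none could have passed the threshold. *Abcg8* counts were split over 3 coding transcripts, with medians of 63.4%, 22.0% and 10.1%, the last being the one that overlaps *Abcg5*. Without that transcript the log2 fold change of *Abcg8* at day 70 was 1.66 (adjusted P = 0.051, edgeR) in place of 1.74.

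Neither LXR gene was called for diet at any day by edgeR. *Nr1h2* (ENSMUSG00000060601.13, chromosome 7, 44549616 to 44553951, minus strand) lay between 62.5 and 97.4 CPM in 25 of the 26 libraries. At day 0 it had 91.3, 84.6, 70.3 and 74.6 CPM on the standard diet and 93.0, 75.7, 76.4 and 80.9 CPM on GW3965. The exception was standard diet day 43 replicate 1, the library of lowest RNA integrity, at 24.7 CPM beside 90.8 and 69.9 CPM in the same group. The log2 fold change for diet was 0.04 ± 0.233, -0.10 ± 0.271, 0.28 ± 0.297 and 0.06 ± 0.275 (SE) at days 0, 22, 43 and 70 (adjusted P between 0.83 and 1, edgeR), and without that library the day 43 value was -0.08. The 8 group means ran from 61.8 to 93.0 CPM, and every group overlapped the next.

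*Nr1h3* (ENSMUSG00000002108.10, chromosome 2, 91184061 to 91202834, minus strand) was lowest at day 70 on both diets. At day 0 it had 26.1, 29.1, 31.4 and 26.3 CPM on the standard diet and 33.95, 30.1, 36.01 and 32.8 CPM on GW3965. At day 22 the standard libraries had 34.1, 24.1 and 28.6 CPM and the GW3965 libraries 38.5, 36.9 and 42.9 CPM. The day 43 libraries had 25.4, 38.6 and 47.1 CPM and 40.4, 74.9 and 36.7 CPM. These groups overlapped their neighbours in the order of means, from 50.7 CPM on GW3965 at day 43 to 28.2 CPM on the standard diet at day 0. At day 70 the standard libraries had 5.73, 7.49 and 7.52 CPM and the GW3965 libraries 10.0, 19.1 and 7.74 CPM, below every library of the other days. Against day 0 the log2 fold change at day 70 was -2.05 ± 0.268 on the standard diet (SE, adjusted P = 5.5e-05, edgeR) and -1.29 ± 0.268 on GW3965 (adjusted P = 0.0022), and both calls were kept without any 1 of the 26 libraries. Between the diets it was 0.21 ± 0.230, 0.36 ± 0.269, 0.64 ± 0.285 and 0.96 ± 0.282 at days 0, 22, 43 and 70 (adjusted P = 1, 0.72, 0.55 and 0.075, edgeR). The day 70 difference was called without GW3965 day 70 replicate 3 (1.28, adjusted P = 0.0078) or standard diet day 43 replicate 1 (0.97, adjusted P = 0.038), and by DESeq2 with all libraries (adjusted P = 0.025). The 3 squamous epithelium markers (*Krt5*, *Krt14* and *Krt13*) went from 2.09 to 3.16 CPM at day 0 to 2170 to 2836 CPM at day 70 on the standard diet. On GW3965 they had 1.65 to 2.41 CPM at day 0 and 10318, 3.61 and 9411 CPM at day 70, in order of replicate number. The part of tissue content in the *Nr1h3* values was not tested.

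In TPM *Nr1h2* exceeded *Nr1h3* in 24 of the 26 libraries, by 2.69 ± 0.446 times (SD, n = 4) on the standard diet and 2.19 ± 0.214 times (n = 4) on GW3965 at day 0. At day 70 the ratio was 9.23 ± 1.30 (n = 3) on the standard diet and 6.93 ± 3.69 (n = 3) on GW3965, with every day 70 library but 1 above all libraries of the other days. On GW3965 the ratio stood at 0.819, 0.667, 1.11 and 0.680 times that of the standard diet at days 0, 22, 43 and 70 (two-sided exact permutation tests, P = 0.11, 0.1, 0.7 and 0.4; adjusted P of at least 0.46 over 8 ratio tests). The smallest P that 3 libraries against 3 allow is 0.1, and the day 0 test allows 0.029. After adjustment over 8 ratio tests none could therefore have passed 0.05. The day 22 groups did not overlap, at 2.46 to 4.54 against 1.95 to 2.36. Both genes were split over several transcripts, the leading one taking a median of 40.6% of *Nr1h2* and 41.3% of *Nr1h3*, so their TPM rest on how the quantifier divided the counts. *Nr1h3* also shares 34 exonic bases with the same-strand transcript gene *Gm13783*.

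**Figure D3:**
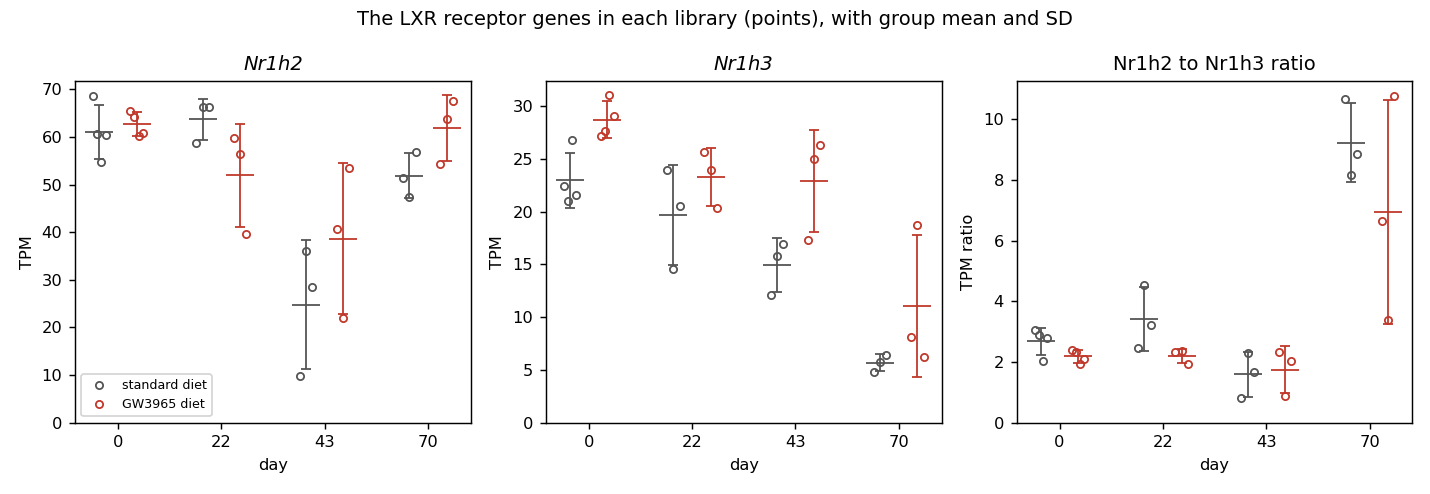
Each point is 1 library, placed by day, with TPM of *Nr1h2* (left) and *Nr1h3* (middle) and their ratio (right) on linear axes from 0; bars are group means and SD, grey for the standard diet and red for GW3965. The ratio averages 9.23 on the standard diet at day 70, against 1.59 to 3.41 at the other days, while *Nr1h3* averages 5.68 TPM there.

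*Rxra* (ENSMUSG00000015846.14, chromosome 2, 27676440 to 27762957, plus strand) was lowest at day 43 on both diets. It had 101, 97.3, 76.6 and 76.4 CPM at day 0 on the standard diet and 95.3, 82.6, 83.1 and 80.6 CPM on GW3965. At day 22 the values were 84.1, 54.0 and 62.2 CPM and 56.8, 47.4 and 39.1 CPM. At day 43 they were 40.4, 38.9 and 33.1 CPM and 37.1, 26.6 and 49.2 CPM, below every library of day 0. At day 70 they were 103, 52.1 and 51.0 CPM and 164, 82.0 and 103 CPM, with the diets overlapping. The diet effect was not called at any day, with log2 fold changes of -0.00 ± 0.184, -0.35 ± 0.216, -0.45 ± 0.239 and 0.59 ± 0.217 (SE) at days 0, 22, 43 and 70 (adjusted P = 1, 0.62, 0.60 and 0.15, edgeR). Without GW3965 day 70 replicate 2 the day 70 value was 0.82 and called (adjusted P = 0.032).

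The low *Rxra* of day 43 coincided with a high ribosomal percentage, the counts on 88 ribosomal protein genes as a percentage of the total, which was 10.0% to 18.6% in the 6 libraries of day 43 and 5.33% to 6.51% in the 8 of day 0. With this percentage as a term of the fit, as in all values above, *Rxra* at day 43 against day 0 was 0.25 ± 0.425 on the standard diet (SE, adjusted P = 0.97, edgeR) and -0.20 ± 0.330 on GW3965 (adjusted P = 0.85). Without the term it was -1.23 ± 0.268 (adjusted P = 0.00064) and -1.18 ± 0.268 (adjusted P = 0.0014). No library of day 0 reached the percentage of any library of day 43. Without the term *Abcg5* and *Abcg8* were also called lower at day 43 on both diets, by -1.11 and -0.99 on the standard diet and -1.02 and -1.21 on GW3965 (adjusted P between 0.011 and 0.034, edgeR), against -1.03 and -1.14 and -0.96 and -1.31 with it (adjusted P between 0.37 and 0.88). The share of all genes called without the term is not given here, so these calls stand without a background.

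*Mylip* (ENSMUSG00000038175.10, chromosome 13, 45389742 to 45412022, plus strand) was called for diet only at day 70. There it had 25.7, 20.99 and 35.3 CPM on the standard diet and 95.7, 95.4 and 91.3 CPM on GW3965, a log2 fold change of 1.70 ± 0.275 (SE, adjusted P = 0.0086, edgeR). Without standard diet day 70 replicate 1 the adjusted P was 0.075. At day 0 the standard libraries had 57.0 and 65.9 CPM after 22 days of diet and 32.4 and 27.1 CPM after 43 days, and the GW3965 libraries 76.2 and 96.0 CPM after 22 days and 109.6 and 109 CPM after 43 days. All 4 GW3965 libraries lay above the 4 standard ones, by 1.12 ± 0.229 on the log2 scale (adjusted P = 0.18, edgeR). Split by the days of diet, the difference was 0.49 ± 0.220 after 22 days (adjusted P = 1, edgeR) and 1.90 ± 0.227 after 43 days (adjusted P = 0.00067), whose own difference was not tested. DESeq2 called the pooled difference (adjusted P = 0.0022), as did edgeR without standard diet day 0 (22 days) replicate 2 (adjusted P = 0.026).

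At day 22 *Mylip* had 57.2, 41.5 and 48.3 CPM on the standard diet and 72.3, 72.6 and 49.9 CPM on GW3965, so the diets overlapped, through the lowest GW3965 library. The log2 fold change was 0.45 ± 0.263 (SE, adjusted P = 0.60, edgeR). At day 43 it had 37.3, 29.9 and 27.6 CPM and 80.9, 66.7 and 81.5 CPM, with no overlap and a log2 fold change of 1.11 ± 0.290 (adjusted P = 0.44).

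**Figure D4:**
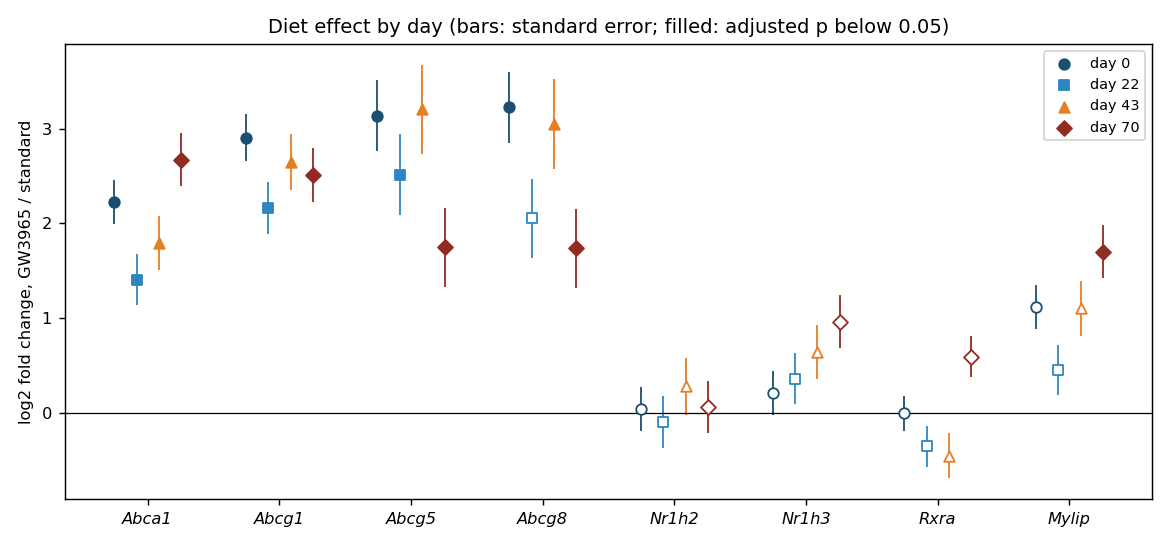
The vertical axis gives the log2 fold change of GW3965 against the standard diet for each gene, with 1 symbol for each day; bars are the standard error and filled symbols have an adjusted P below 0.05 over all genes. *Abcg5* and *Abcg8* stand near 3 at days 0 and 43 and at 1.75 and 1.74 at day 70, whereas *Abca1* and *Mylip* are lowest at day 22 and highest at day 70.

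Whether the diet effect itself changed between days was tested as the difference of the diet effects, for 6 pairs of days. None of the 8 genes passed at an adjusted P below 0.05 in edgeR for any pair. The genes with an unadjusted P below 0.05 numbered 3 for day 22 against day 0, 0 for day 43 against day 0, 3 for day 70 against day 0, 0 for day 43 against day 22, 3 for day 70 against day 22 and 4 for day 70 against day 43. Over all genes the share at such a P was 6.24%, 4.37%, 12.7%, 4.24%, 20.2% and 16.1% for these pairs in order. DESeq2 called 2 for day 70 against day 22 and 0 for the other pairs. Over all genes edgeR called 0.0234%, 0%, 0%, 0%, 0.0234% and 0.0176% for the pairs in the same order. The differences share groups, so they are not independent of each other.

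The *Abcg5*–*Abcg8* pair and *Abca1* with *Mylip* gave the largest differences among the transporters and *Mylip*, in opposite directions. From day 0 to day 70 the effect on *Abcg5* was smaller by -1.39 ± 0.544 (log2, SE; adjusted P = 0.30, edgeR) and that on *Abcg8* by -1.49 ± 0.541 (adjusted P = 0.26). From day 43 to day 70 they were smaller by -1.46 ± 0.583 and -1.31 ± 0.583 (adjusted P = 0.26 and 0.29, edgeR), and without GW3965 day 70 replicate 2 by -2.33 and -2.06, which were called (adjusted P = 0.026 and 0.045). From day 22 to day 70 the effect on *Abca1* was larger by 1.27 ± 0.384 (adjusted P = 0.10, edgeR) and that on *Mylip* by 1.25 ± 0.384 (adjusted P = 0.11). These were the 2 genes that DESeq2 called (adjusted P = 0.037 and 0.041), and edgeR called *Abca1* without GW3965 day 70 replicate 3 (1.49, adjusted P = 0.035). With the ribosomal percentage interacting with diet and day, the *Abca1* difference turned to -1.18 ± 1.17 (adjusted P = 1, edgeR), and its difference between days 43 and 70 to -0.78 ± 1.5004 (adjusted P = 1, edgeR). *Rxra* differed by 0.95 ± 0.311 between days 22 and 70 and by 1.04 ± 0.308 between days 43 and 70 (adjusted P = 0.12 and 0.18, edgeR), and was called in both without GW3965 day 70 replicate 2 (adjusted P = 0.047 and 0.036). For *Abcg1* the differences ran from -0.74 to 0.49 and for *Nr1h2* from -0.21 to 0.37.

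Within a diet, days 22, 43 and 70 were compared with day 0, from which they also differed in cage. On the standard diet *Abcg1* rose at day 22 (1.18 ± 0.258, log2, SE; adjusted P = 0.0086, edgeR) and at day 70 (1.01 ± 0.249, adjusted P = 0.0043), and both calls were kept without any 1 library. At day 70 on the standard diet *Nr1h3* fell, as given above, and *Mylip* fell by -0.73 ± 0.249 (adjusted P = 0.030, edgeR). The *Mylip* call was lost without either standard library of day 0 after 22 days of diet or standard diet day 70 replicate 1 or 2 (adjusted P between 0.087 and 0.13, log2 fold change between -0.65 and -0.49). *Abcg8* was at 0.92 ± 0.373 (adjusted P = 0.064, edgeR) and was called, at adjusted P between 0.021 and 0.046, without GW3965 day 70 replicate 1 or 2, standard diet day 0 (22 days) replicate 1 or standard diet day 43 replicate 2. *Rxra* was called without standard diet day 70 replicate 1 (-0.68, adjusted P = 0.021, edgeR), against -0.37 with it. In all, 1 of the 8 genes was called at day 22, 0 at day 43 (0 at an unadjusted P below 0.05, beside 8.02% of all genes, and 0 by DESeq2) and 3 at day 70, beside 7.73%, 0% and 33.2% of all genes.

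On GW3965 the day 22 calls were *Abcg5*, at -1.40 ± 0.412 (log2, SE; adjusted P = 0.030, edgeR), and *Abcg8*, at -1.72 ± 0.409 (adjusted P = 0.0088). The *Abcg5* call was lost without GW3965 day 0 (22 days) replicate 1, either GW3965 day 0 library after 43 days, or GW3965 day 22 replicate 1 or 2 (adjusted P between 0.054 and 0.16), and the *Abcg8* call without GW3965 day 22 replicate 2 (adjusted P = 0.054). *Rxra*, at -0.56 ± 0.215 (adjusted P = 0.097, edgeR), was called without GW3965 day 70 replicate 1 or 2 or standard diet day 70 replicate 1 (adjusted P between 0.033 and 0.047). At day 70 *Nr1h3* alone was called, while *Abca1* was at 0.68 ± 0.251 (adjusted P = 0.057, edgeR), *Abcg1* at 0.62 ± 0.254 (adjusted P = 0.087), *Abcg5* at -0.99 ± 0.394 (adjusted P = 0.079) and *Abcg8* at -0.57 ± 0.386 (adjusted P = 0.31). Without GW3965 day 70 replicate 2, *Abcg5* and *Abcg8* were at -1.82 and -1.27 and were called (adjusted P = 0.00053 and 0.012, edgeR). *Abca1* was called without GW3965 day 70 replicate 3, standard diet day 0 (22 days) replicate 2, standard diet day 0 (43 days) replicate 2 or standard diet day 43 replicate 1, and *Abcg1* without standard diet day 43 replicate 1 or 2 (adjusted P between 0.032 and 0.047). In all, 2 of the 8 genes were called at day 22, 0 at day 43 (0 at an unadjusted P below 0.05, beside 13.6% of all genes, and 0 by DESeq2) and 1 at day 70, beside 12.6%, 0.938% and 21.8% of all genes.

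Markers of other cell types also differed between the diets at day 70, and their part in the diet effects of that day was not tested. The 6 macrophage markers (*Adgre1*, *Csf1r*, *Cd68*, *C1qa*, *C1qb* and *Mrc1*), all detected in every group, summed to 352, 357 and 234 CPM in the GW3965 libraries and to 110.3, 220.0 and 115 CPM in the standard libraries, and the 4 fibroblast markers to 980 to 2013 CPM against 719 to 1337 CPM. The 4 B cell markers summed to 41.5, 279 and 16.1 CPM on GW3965 against 4.68, 9.62 and 4.90 CPM on the standard diet, and the 4 T cell markers to 17.8, 41.5 and 11.8 CPM against 3.995, 9.75 and 7.78 CPM. The 3 endothelium markers summed to 296, 146 and 144 CPM against 127.0, 109.98 and 85.4 CPM, and the 3 enteric glia markers to 19.6, 6.00 and 7.91 CPM against 2.10, 3.57 and 2.87 CPM. For macrophages, B cells, T cells, endothelium and enteric glia every GW3965 library of day 70 thus lay above every standard one, whereas the fibroblast markers overlapped. At day 0, where all 4 transporter genes were called, the macrophage markers were 125 to 206 CPM on GW3965 and 191 to 288 CPM on the standard diet. At days 22 and 43 the macrophage markers overlapped between the diets (369 to 595 against 372 to 566 CPM, and 479 to 706 against 288 to 1211 CPM). Without GW3965 day 70 replicate 1 and standard diet day 43 replicate 1, an alternative chosen after seeing the data, the genes called for diet numbered 4, 4, 4 and 5 at days 0, 22, 43 and 70, and none was called for a difference between days. The day 0 library with conflicting labels had 151 CPM of *Abca1*, 76.5 CPM of *Abcg1*, 133 CPM of *Abcg5* and 59.2 CPM of *Abcg8*, and without it the same number of genes, 4, was called at day 0.

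Other genes of the pathway were taken from 5 lists. Over all 17063 genes, 1.94%, 9.96%, 8.65% and 18.8% had an unadjusted P below 0.05 for diet at days 0, 22, 43 and 70, the background for the counts at that P here. The share of all genes that DESeq2 called is not given here, so its counts in the lists stand without a background. Of 17 other LXR target genes, 16 were tested, and 1, 2, 1 and 3 were called higher on GW3965 at days 0, 22, 43 and 70 by edgeR, and 2, 5, 3 and 7 by DESeq2, with 0 lower in either tool and 0 lower at an unadjusted P below 0.05. Their median log2 fold change was 0.57, 0.52, 0.59 and 1.06, against -0.02, -0.01, -0.03 and 0.02 over all genes, and 5, 7, 6 and 12 of the 16 had an unadjusted P below 0.05. *Srebf1*, the regulator of fatty acid synthesis, was called at every day, with log2 fold changes of 2.23 ± 0.169, 2.06 ± 0.195, 1.81 ± 0.213 and 1.66 ± 0.194 (SE; adjusted P between 3.5e-07 and 0.00036, edgeR). It went from 111 ± 26.8 CPM (SD, n = 4) to 518 ± 26.2 CPM (n = 4) at day 0. The other called genes, named after their values were seen, were the desaturase gene *Scd2* at day 22 (1.61 ± 0.303, adjusted P = 0.033, edgeR), and at day 70 *Apoe*, whose protein carries lipid between cells (1.96 ± 0.495, adjusted P = 0.048), and the lipase gene *Lpl* (3.13 ± 0.698, adjusted P = 0.031), which had 131.9, 32.2 and 10.1 CPM in the 3 GW3965 libraries, in order of replicate number, and 4.84 to 10.7 CPM on the standard diet. Leaving out each of the 26 libraries in turn for the lists, at day 70, was an alternative chosen after seeing the data. The *Srebf1* call was kept each time, the *Lpl* call was lost without any of 6 libraries and the *Apoe* call without any of 20 (adjusted P between 0.053 and 0.19 and between 0.051 and 0.24, edgeR). Without GW3965 day 70 replicate 1 *Lpl* was at 1.68 and *Apoe* at 1.71, neither was called (adjusted P = 0.18 and 0.15, edgeR), 1 of the 16 genes was called and the median was 1.12. The calls ran from 1 to 8 over the 26 libraries left out, with 8 without GW3965 day 70 replicate 3 and 7 without standard diet day 43 replicate 1.

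Of 16 further ABCA, ABCB and ABCG lipid transporter genes, 14 were tested and 0 were called at days 0, 22 and 43 by edgeR or DESeq2 (0, 0 and 1 at an unadjusted P below 0.05), whereas 2 were called higher at day 70, *Abca8a* (4.33 ± 0.891, log2, SE; adjusted P = 0.025, edgeR) and *Abcg3* (1.77 ± 0.442, adjusted P = 0.046), and DESeq2 called 5. At day 70 the list's median was 1.52, with all 14 values positive and 9 of the 14 at an unadjusted P below 0.05, against a median of -0.16 at day 0. *Abca8a* had 26.9, 2.65 and 1.38 CPM in the GW3965 libraries of day 70, in order of replicate number, and 0.158 to 0.634 CPM on the standard diet. The high value stood in replicate 1, the library with the most skeletal muscle, fibroblast, endothelium and enteric glia markers of its day, and their part in the list's values was not tested. Without that library the list's median was 0.48, 11 of the 14 values were positive, 4 had an unadjusted P below 0.05 and none was called, with *Abca8a* at 2.09 (adjusted P = 0.11, edgeR). Without standard diet day 70 replicate 1 the median was 0.97, and without either of the other two standard libraries of that day it was 2.13 and 1.38, with 0 called each time. The *Abca8a* call was lost without any of 5 libraries and the *Abcg3* call without any of 21 (adjusted P between 0.059 and 0.17 and between 0.051 and 0.24, edgeR). Without GW3965 day 70 replicate 2 or 3, 4 and 7 of the 14 were called. Of 11 genes of sterol uptake and movement within cells, 10 were tested and 1 was called, at day 70, *Gramd1b*, which encodes a protein that carries sterol from the plasma membrane (0.75 ± 0.182, adjusted P = 0.041, edgeR). That call was lost without any of 14 libraries (adjusted P between 0.052 and 0.22, edgeR), with the log2 fold change between 0.69 and 0.90 over the 26 libraries left out. At days 0, 22, 43 and 70 the 10 genes had 1, 0, 2 and 3 members at an unadjusted P below 0.05, and DESeq2 called 1, 0, 0 and 2. None of the 7 MYLIP substrates and partners was called at any day by edgeR or DESeq2, with 0, 2, 0 and 0 of the 7 at an unadjusted P below 0.05 at days 0, 22, 43 and 70. None of the 16 receptor partners and coregulators was called, the smallest P belonging to *Rxrg* at day 70 (4.53 ± 1.19, adjusted P = 0.054, edgeR), at 10.2, 0.258 and 0.353 CPM on GW3965, in order of replicate number, and 0 to 0.261 CPM on the standard diet. Without GW3965 day 70 replicate 1 *Rxrg* was at 1.19 (adjusted P = 0.74, edgeR), and it was called without GW3965 day 70 replicate 2 or 3 or standard diet day 43 replicate 1 or 2 (adjusted P between 0.0098 and 0.040, edgeR). At an unadjusted P below 0.05 stood 1, 1, 5 and 2 of the 16 at days 0, 22, 43 and 70, and the 1 of day 22 and all 5 of day 43 were lower on GW3965, and DESeq2 called *Rxrg* at day 70 and 0 at the other days.

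Across the 26 libraries, *Srebf1* was the gene outside the 8 whose log2 CPM was most like that of *Abca1* (Pearson's r = 0.857), *Abcg1* (r = 0.857), *Abcg5* (r = 0.903) and *Abcg8* (r = 0.914), and it came after 2 others for *Mylip* (r = 0.730). *Apod* and *Scd1* followed for *Abca1* (r = 0.827 and 0.826), *Gramd1b* and *Fads1* for *Abcg1* (r = 0.792 and 0.778), *Scd2* and *Cyp2w1* for *Abcg5* (r = 0.744 and 0.741) and *Lpcat3* and *Scd2* for *Abcg8* (r = 0.760 and 0.757). *Mylip* was most like *Cyp2w1* (r = 0.741) and *Gramd1b* (r = 0.734). The receptor genes were most like other genes: *Nr1h2* like *AI837181* (r = 0.950), *Cnpy3* (r = 0.917) and *Rbck1* (r = 0.906), *Nr1h3* like *Rarres2* (r = 0.940), *Fuom* (r = 0.930) and *Mppe1* (r = 0.927), and *Rxra* like *Snrk* (r = 0.978), *Tacc2* (r = 0.961) and *Prrc2b* (r = 0.949). These values describe libraries that share diet, day and library quality, and carry no test.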

How the data were processed

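Polyadenylated RNA of distal colon was sequenced from 26 libraries in 8 groups of diet and day, 4 per group at day 0 and 3 otherwise. The authors quantified transcripts with kallisto (version not given in the sources used here) on GRCm38 and deposited, for each library, estimated counts, TPM (length-normalised transcript levels) and effective lengths for 119414 transcripts. Gene names came from GENCODE release M21 (97.75% of transcripts matched; the rest held 0.615% to 0.999% of counts and were left out). Estimated counts were summed per gene, rounded and tested with edgeR 4.0.16 (R 4.3.3) by its quasi-likelihood test, with TMM scaling, a filter on low counts (filterByExpr), the 8 groups and the centred ribosomal percentage (88 genes) as terms and Benjamini-Hochberg adjustment over 17063 genes, with a threshold of 0.05. The standard error was the log2 fold change divided by the square root of F. CPM are TMM-scaled and not corrected for the ribosomal percentage. Comparisons within a day share no libraries between days, but the fit shares 1 estimate of the spread, and differences between days and against day 0 share groups. The study's methods let a percentage of ribosomal RNA, whose definition is not given, interact with diet and day. It may differ from the percentage on ribosomal protein genes used here. The latter entered as 1 term because its slope within groups of 3 or 4 rests on few libraries, and the interacting form was an alternative. DESeq2 1.42.0 and other terms, scalings and left-out libraries were run as alternatives. Depth was 18195345 to 41522204 counts per library (median 20424701), which covers counting error only. The pipeline was tested on simulated counts.

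The genes and lists were chosen with earlier results of these data known. Besides the 8 genes, the text names genes of the lists that were called for diet at 2 or more days or had the smallest P of their list at any day (1 such gene is not reported here), and for each of the 8 genes the 3 others of highest Pearson's r over the log2 CPM (prior count of 2) of all libraries. Promoter windows came from RefSeq (GRCm38.p6), which 7 of the 8 genes matched; *Abcg1* had none. Protein sequences were not used here. Python 3.11.15 with scipy 1.17.1 gave the exact permutation tests, and matplotlib 3.10.9 the plots.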

Additional observations from a re-analysis of the deposited data

Results flagged for a closer look

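*Rxra* at day 0 on GW3965 held a library far from the others of its group, at 95.3 CPM beside 80.6 to 83.1 CPM in the other 3. It was the only such library among the 20 group-and-gene or group-and-ratio sets of 4 libraries that were examined, where chance gives about 1 in 20. Groups of 3 libraries were not examined.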

How the results depend on the processing

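Counts below are of the 8 genes called (adjusted P below 0.05). For these alternatives, here and in the Results, the share of all genes called is not given, so the counts stand without a background. For diet at days 0, 22, 43 and 70 (4, 3, 4 and 5 called), letting the ribosomal percentage interact with diet and day left 0, 0, 0 and 0, with 10 residual degrees of freedom; the libraries of 1 day alone left 1 at day 43 and 0 at day 70; no filter on low counts left 3 at day 70; the day 0 libraries after 22 days of diet alone left 1 at day 0. Among differences between days, DESeq2 called 2 for day 70 against day 22. Against day 0 on the standard diet (1, 0 and 3 at days 22, 43 and 70), the interactions left 0 at days 22 and 70, the day 0 libraries after 22 days left 0 at day 22, and at day 43 RNA integrity in place of the percentage gave 2 and no such term 3. On GW3965 (2, 0 and 1), the interactions left 0 at days 22 and 70, the day 0 libraries after 22 days left 0 at day 22, RNA integrity gave 3 at days 43 and 70, no such term gave 3 at days 43 and 70, DESeq2 gave 3 at day 70, and leaving out both libraries that stand apart gave 2 at day 70. The cause was not tested, beyond the fewer libraries of the day 0 and single-day fits. Leaving out 1 library gave 4 to 5, 1 to 4, 1 to 4 and 2 to 6 for diet, 0 to 1 for day 70 against day 22, 0 to 3 for day 70 against day 43, 0 for the other differences, 1, 0 and 2 to 4 on the standard diet and 0 to 3, 0 and 1 to 3 on GW3965.

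Not every value was tallied here. *Rxra* at day 43 against day 0 on the standard diet, given in the Results, also changed sign without the ribosomal term. Among the log2 values that were tallied, those that changed sign were as follows. With the interactions, *Nr1h3* was -0.0065 at day 0 and -1.97 at day 70, *Rxra* 0.073 at day 0 and 0.15 at day 43, *Nr1h2* -0.090 at day 43, *Abcg1* 0.10 for day 22 against day 0, and *Abca1* -1.18 and -0.78 for day 70 against days 22 and 43, -0.23 for day 22 on the standard diet and -1.27 for day 70 on GW3965. *Nr1h2* at day 0 was -0.010 with counts scaled from TPM and -0.058 after 22 days of diet, and at day 43 -0.093 without both libraries that stand apart. *Rxra* was 0.17 after 43 days of diet and 0.0020 with no filter at day 0, and 0.0068 at day 43 with no ribosomal term. With 1 library left out, *Nr1h2* ranged from -0.025 to 0.099 at day 0, from -0.083 to 0.78 at day 43 and from -0.052 to 0.17 at day 70, and *Rxra* from -0.064 to 0.059 at day 0. Of 574 single values under the other alternatives, 484 kept direction and side of the threshold, 53 lost the call, 21 gained it and 16 changed sign. DESeq2's size factors in edgeR changed none of 58.

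The replicate numbers did not pair the libraries: over 13 same-numbered pairs the correlation of deviations from group means averaged -0.066 (-0.370 to 0.201), 2 pairs were above 0.1, and 1 of 13 standard libraries lay closest to its own number. With the numbers as a replicate block, 4, 0, 0 and 2 genes were called for diet at days 0, 22, 43 and 70.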
